A study of Homo sapiens with 8 samples.

Results

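Ribosome biogenesis factors are the proteins that transcribe, modify, cut and fold ribosomal RNA and load it with ribosomal proteins in the nucleolus before the subunits leave for the cytoplasm. A list of 50 such genes was followed through ribosome profiling of OVCAR3 cells, a human ovarian carcinoma line, and each gene was found by matching the transcript identifiers of the counted regions to gene symbols. Of the 50, 49 matched a region among the 20165 counted, BOP1 was not analysed here, and all 49 passed the filter on low counts in both comparisons. The list names its genes and sets no threshold on a measured value, but it was drawn up with earlier results of these data known.

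Ribosome profiling sequences the pieces of mRNA that ribosomes shield from RNase, so that the count over a coding sequence reflects both how much mRNA is present and how many ribosomes it carries. These cannot be told apart here. There were 8 libraries in 4 groups of 2. OVCAR3 cells were transfected with siRNA at 30 nM and harvested after 48 h. The siRNA was either a control (siControl) or aimed at OARD1 (siTARG1), the gene of the ADP-ribose hydrolase TARG1. In the other pair of groups, OVCAR3 cells took up 1 ug/ml doxycycline for 48 h, which switched on a knockdown of endogenous RACK1 and, at the same time, HA-tagged RACK1 in its wild-type form (RACK1-WT) or with its MARylation sites mutated (RACK1-Mut). MARylation is the attachment of single ADP-ribose units to a protein, and RACK1 is a protein of the 40S subunit. Both RACK1 groups thus share the doxycycline, the knockdown and the lentiviral vectors, which the siRNA groups lack. The methods list 2 siRNAs against TARG1, and which of them these libraries received is not given in the sources used here. Nor are the siRNA sequences, or whether the RACK1 lines were single clones.

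The libraries held 3100947 to 6604190 coding footprints, of which the 49 genes took 0.759% to 0.902%. OARD1, the target of the siRNA, had 121.3 and 69.14 normalized counts with siControl and 5.827 and 6.747 with siTARG1. In the RACK1 lines, RACK1 footprints come from the endogenous gene and the introduced coding sequence together. RACK1 had 23334 and 23594 normalized counts in the RACK1-WT libraries and 17745 and 17274 in the RACK1-Mut libraries. That gene was 1 of the 10 called in the RACK1 comparison. It was also called lower in siTARG1 cells, with 12320 and 13029 normalized counts in siControl and 10037 and 11268 in siTARG1. The log2 fold change there was -0.25 (SE 0.0688 and adjusted p 0.00297 by DESeq2). All 8 markers of OVCAR3 and related carcinoma cells were present, with PAX8 at 273 to 434 and EPCAM at 570 to 799 footprints per kilobase of coding sequence per 1000000 coding footprints. Of the markers of other cell types, PTPRC, DCN and ALB had at most 2 footprints in any library, DES at most 11, and COL1A1 58 to 231. PECAM1 was not analysed here.

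Ribosome assembly starts with RNA polymerase I copying the ribosomal DNA. Small nucleolar ribonucleoproteins (snoRNPs) then guide methylation and pseudouridylation of the transcript, the small subunit processome cleaves and folds its 18S part, and separate sets of factors mature the 40S and 60S particles. Genes of this kind are among the known targets of the MYC transcription factors, and their products are abundant in fast-growing carcinoma cells.

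Levels of the members spanned 146-fold. On the scale of footprints per kilobase of coding sequence per 1000000 coding footprints, the mean of the 8 libraries ran from 10.2 for DDX10, an RNA helicase, to 1491 for NPM1 (nucleophosmin), with a median of 42.2 over the 49 genes. Above 200 lay 6 members, namely NPM1, FBL, NOP10, NHP2, NCL and NOC2L, and under 20 lay 6. The coding sequences were 195 to 8358 bases long. NPM1 has 49 annotated pseudogenes that carry its name and 12 members have at least 1, so for these members reads may be shared with a copy.

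**Figure D1:**
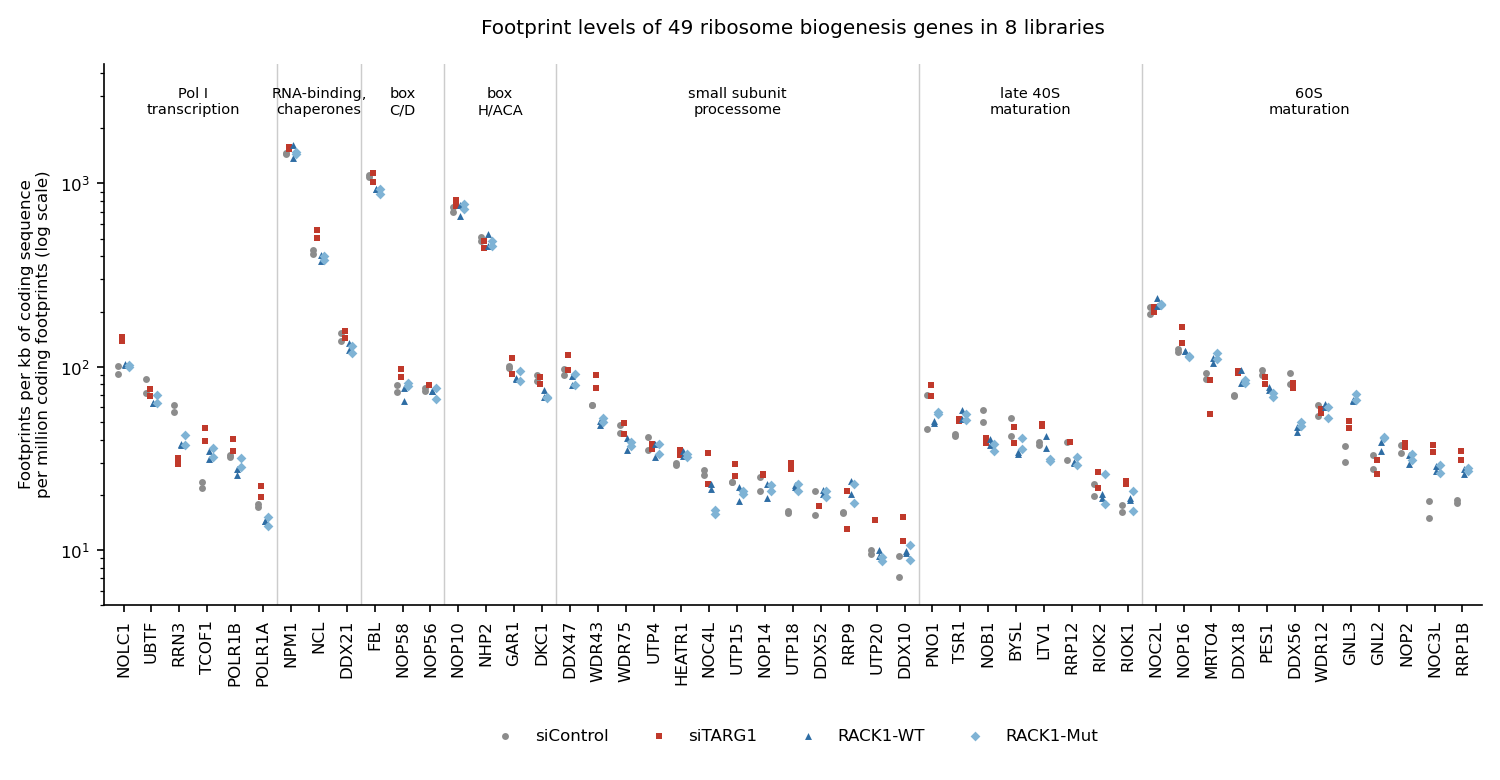
Footprints per kilobase of coding sequence per 1000000 coding footprints (log axis) of each of the 49 genes, in groups by role. Each point is 1 library, 2 per group. The mean of the 8 libraries runs from 10.2 for DDX10 to 1491 for NPM1, and partners of 1 complex lie far apart, as with FBL against NOP56 and NOP58.

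Subunits that act together were not footprinted alike. Box C/D snoRNPs carry FBL (fibrillarin), the enzyme that methylates ribosomal RNA, on a frame of NOP56 and NOP58. FBL lay at 872 to 1137, NOP56 at 66.8 to 79.6 and NOP58 at 65.1 to 97.4 on the same scale. FBL was thus 12.2 to 15.1 times as densely covered as NOP56 within each library. In the box H/ACA snoRNP, DKC1 (dyskerin), the pseudouridine synthase, lay at 67.3 to 89.9 and GAR1 at 83.3 to 112, whereas the small proteins NHP2 and NOP10 lay at 443 to 532 and 668 to 807. The ratio of NOP10 to DKC1 was 7.75 to 11.3. NOP10 has the shortest coding sequence of the members, and a short coding sequence gives the footprints near its start and stop codons more weight. PES1 and WDR12, which form a complex with BOP1 on the 60S precursor, differed less, with PES1 1.19 to 1.67 times as high. Among the subunits of RNA polymerase I, POLR1B, at 25.7 to 40.2, lay 1.78 to 2.1 times above POLR1A, at 13.5 to 22.3. These ratios are descriptions of level and were not tested.

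Loss of TARG1 was compared with the control siRNA to ask which of these genes changed their footprints. In siTARG1 cells 9 members rose, 2 fell and 38 were not called, with a call meaning an adjusted p under 0.05 in DESeq2 over all genes tested. NOC3L, TCOF1, RRP1B and UTP18 rose most, and RRN3, the factor that makes RNA polymerase I able to initiate, fell to 0.493 of its control level. The called share was 22.4% of the members, beside 16.4% of the 12056 genes tested. Genes called higher made up 7.18% of all genes and genes called lower 9.19%. The median log2 fold change of the members was 0.08, with 30 above 0 and 19 below, beside a median of 0.00 for all genes. The libraries of the 2 groups stood apart for 27 of the 49 members, a share below the 62.6% of all genes. All 11 called members were among the 27. Their calls came from the same counts, so this separation describes them and adds no support.

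**Figure D2:**
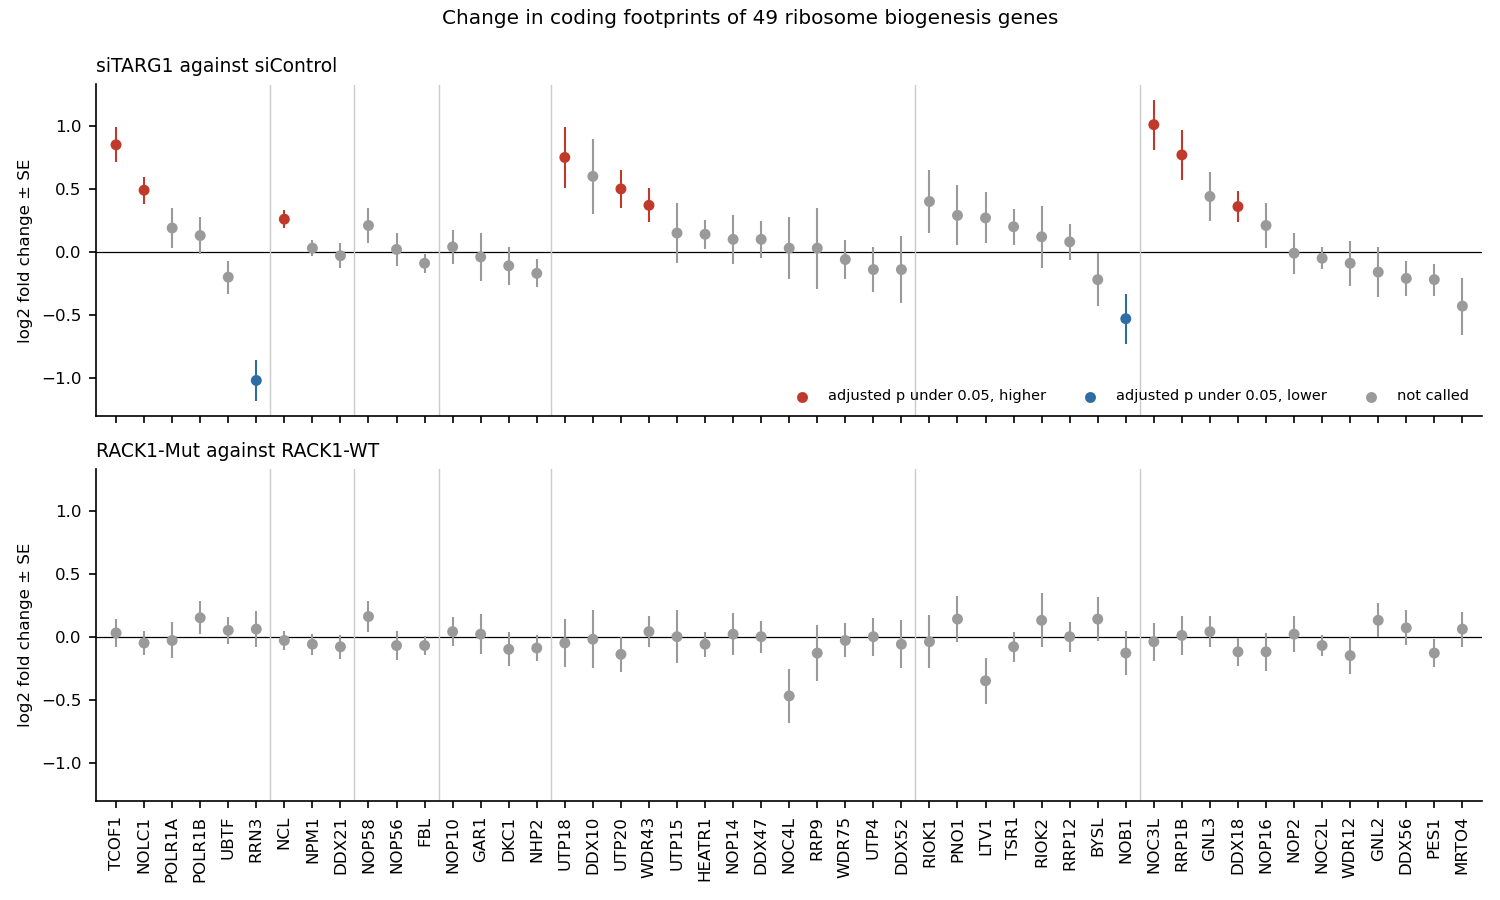
log2 fold change of coding footprints for each of the 49 genes, with bars of 1 standard error from DESeq2, in siTARG1 against siControl (top) and RACK1-Mut against RACK1-WT (bottom), ordered by role and then by the top value. The top panel runs from -1.02 for RRN3 to 1.01 for NOC3L with 11 called genes, and the bottom panel from -0.47 for NOC4L to 0.16 for NOP58 with 0 called.

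The 3 called factors of RNA polymerase I transcription moved in opposite directions. TCOF1 encodes treacle, a nucleolar scaffold that holds the polymerase machinery at the ribosomal DNA (chromosome 5, 149737192 to 149779871, plus strand in GRCh37). It had 398.1 and 369.5 normalized counts with siControl and 748.3 and 636.5 with siTARG1, and rose, with a log2 fold change of 0.85 (SE 0.138 and adjusted p 3.07e-08). NOLC1, a treacle relative that binds snoRNPs (chromosome 10, 103911933 to 103923628, plus strand), had 786.6 and 711.6 normalized counts with siControl and 1073 and 1031 with siTARG1, and its log2 fold change was 0.49 (SE 0.108 and adjusted p 0.000116). Both siTARG1 libraries lay above both siControl libraries for each. The counts of RRN3 (chromosome 16, 15153890 to 15188168, minus strand) were 410.5 and 444.6 normalized counts with siControl and 201.4 and 220.4 with siTARG1, a log2 change of -1.02 (SE 0.166 and adjusted p 3.18e-08), and the groups were far apart. RRN3 has 3 named pseudogenes and NOLC1 has 1.

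The polymerase itself and its DNA-binding factor were not called. POLR1A, the catalytic subunit, had 328.7 and 339.7 against 403.7 and 354.2 normalized counts (siControl against siTARG1), a log2 change of 0.19 (SE 0.157 and adjusted p 0.488). For POLR1B the counts were 416.6 and 405.3 against 480.3 and 419.5, with 0.13 (SE 0.145 and adjusted p 0.615). UBTF, which binds the ribosomal DNA promoter, had 728.6 and 611.5 against 556.8 and 611.8, with -0.20 (SE 0.131 and adjusted p 0.323), and its groups overlapped. Of these 6 genes of polymerase I transcription, 2 rose, 1 fell and 3 were not called.

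NCL (nucleolin, chromosome 2, 232318242 to 232348352, minus strand), an abundant RNA-binding protein of the nucleolus, rose by the smallest amount among the called genes. It had 3397 and 3255 normalized counts with siControl and 4150 and 3813 with siTARG1, and a log2 change of 0.26 (SE 0.0734 and adjusted p 0.00418). NPM1, the histone and ribosomal protein chaperone, had 4707 and 4765 against 4754 and 4938 and a log2 change of 0.03 (SE 0.065 and adjusted p 0.809), with overlapping groups. The helicase DDX21 was not called either, at -0.03 (SE 0.0988 and adjusted p 0.898).

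None of the 7 snoRNP proteins among the members was called in siTARG1 cells by DESeq2 or edgeR. At an unadjusted p under 0.05 there were 0 by DESeq2 and 2, NOP58 and NHP2, by edgeR. Of 9 genes of snoRNP assembly outside the members, 3 fell, SNU13 among them, as given below. FBL had 3866 and 3787 against 3763 and 3398 normalized counts, and the log2 fold change was -0.09 (SE 0.0742 and adjusted p 0.441). For NOP56 they were 485.2 and 501.8 against 497.8 and 499.3, with 0.02 (SE 0.132 and adjusted p 0.964), and for NOP58 429.8 and 466.1 against 486.9 and 547.7, with 0.21 (SE 0.139 and adjusted p 0.347). The FBL and NOP58 groups did not overlap and lay in opposite directions, and the NOP56 groups overlapped. DKC1 had 420.1 and 389.8 against 357.1 and 394.7, with -0.11 (SE 0.15 and adjusted p 0.7). NHP2 had 871 and 828.5 against 785.7 and 724.2, with -0.17 (SE 0.112 and adjusted p 0.333), and was the 1 box H/ACA protein whose groups did not overlap. For NOP10 the counts were 502.7 and 535.2 against 513.6 and 556.6, with 0.04 (SE 0.132 and adjusted p 0.884), and for GAR1 239.1 and 243.2 against 257.2 and 211.4, with -0.04 (SE 0.191 and adjusted p 0.939). Across the 7 the log2 fold changes ran from -0.17 to 0.21.

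In the small subunit processome, the large particle that assembles on the nascent transcript, 3 of 13 genes rose and 0 fell. That is 23.1% called, beside 16.4% of all genes. UTP18 (chromosome 17, 49337907 to 49375297, plus strand) had 101.1 and 98.94 normalized counts with siControl and 174 and 163.1 with siTARG1, and its log2 fold change was 0.75 (SE 0.243 and adjusted p 0.0155). UTP20 (chromosome 12, 101673883 to 101780396, plus strand), a very large scaffold protein, had 294.4 and 309.9 normalized counts with siControl and 428.7 and 427.3 with siTARG1, with 0.50 (SE 0.152 and adjusted p 0.00852). For WDR43 (chromosome 2, 29117533 to 29171085, plus strand), of the subcomplex that binds the transcript first, they were 463.2 and 463.7 against 645.1 and 553.3, with 0.37 (SE 0.135 and adjusted p 0.036). Both siTARG1 libraries exceeded both controls for all 3 genes. The other 10 lay between -0.14 (UTP4, DDX52) and 0.60 (DDX10). DDX10 had 89.65 and 69.14 against 103.2 and 140.6 normalized counts and was not called (0.60 (SE 0.297 and adjusted p 0.159)).

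Late 40S factors finish the small subunit on its way to the cytoplasm and within it. Of 8 such genes 1 was called, 12.5% beside 16.4% of all genes. NOB1, the endonuclease that trims the 3′ end of 18S RNA (chromosome 16, 69775774 to 69788829, minus strand), fell. It had 267.2 and 228.9 normalized counts with siControl and 177.3 and 167.6 with siTARG1, and its log2 fold change was -0.53 (SE 0.2 and adjusted p 0.0482). The call lay close to the threshold and was lost with exon counts or without a filter on low counts, where the estimate was -0.52 and -0.53. PNO1, its binding partner, had 129.2 and 197.9 against 184.8 and 212.5 and was not called at 0.29 (SE 0.238 and adjusted p 0.472). The kinases RIOK1 and RIOK2, with BYSL, LTV1, TSR1 and RRP12, ran from -0.22 to 0.40. The LTV1 region also holds transcripts of ZC2HC1B, so its counts are not those of LTV1 alone.

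Of the 12 factors of 60S maturation, 3 rose and 0 fell, 25.0% called beside 16.4% of all genes. NOC3L (chromosome 10, 96092983 to 96122716, minus strand), which travels with early 60S particles, had 164.4 and 133.5 normalized counts with siControl and 288 and 316 with siTARG1, a 2.01-fold rise (log2 fold change 1.01 (SE 0.199 and adjusted p 9.92e-06)). RRP1B (chromosome 21, 45079441 to 45115960, plus strand) had 152.1 and 158.5 normalized counts with siControl and 278 and 249.6 with siTARG1, with 0.77 (SE 0.199 and adjusted p 0.00146). The helicase DDX18 (chromosome 2, 118572267 to 118589953, plus strand) had 521.2 and 513.8 normalized counts with siControl and 652.6 and 677 with siTARG1, with 0.36 (SE 0.124 and adjusted p 0.0246), and has 5 named pseudogenes. All 3 had both siTARG1 libraries above both controls. NOC2L, which works beside NOC3L, was not called at -0.05 (SE 0.0886 and adjusted p 0.783).

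PES1 and WDR12 were not called. PES1 had 625.8 and 590.1 against 541 and 504.9 normalized counts, with -0.22 (SE 0.127 and adjusted p 0.263), and both siTARG1 libraries lay below the controls. WDR12 had 290.9 and 253.9 against 250.5 and 264.3, with -0.09 (SE 0.179 and adjusted p 0.818), and overlapping groups. The nucleolar GTPase GNL3 (nucleostemin) was not called at 0.44 (SE 0.193 and adjusted p 0.105), nor was MRTO4, a relative of the ribosomal stalk protein P0, at -0.43 (SE 0.226 and adjusted p 0.198). With edgeR's quasi-likelihood test, GNL3, MRTO4 and DDX10 joined the 11, so that 14 members were called (11 higher, 3 lower), beside 28.8% of all genes by that test.

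The count of 11 rested on both libraries of each group. Without siControl replicate 1, 4 members were called, without siControl replicate 2 or siTARG1 replicate 1, 3, and without siTARG1 replicate 2, 5. RRN3, TCOF1 and NOC3L were called in all 4 of these fits, and RRP1B, UTP18, UTP20, WDR43, DDX18 and NOB1 in 0. The estimates kept their direction throughout, with NOC3L between 0.87 and 1.17, TCOF1 between 0.73 and 0.97 and RRN3 between -1.09 and -0.95.

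Mutation of the MARylation sites of RACK1 was compared with wild-type RACK1 for the same genes. None of the 49 was called by DESeq2 (0 by edgeR), beside 0.0799% of the 12520 genes tested, and the median log2 fold change was -0.03, with 19 above 0 and 30 below. At an unadjusted p under 0.05 there was 1 member by DESeq2 and 2 by edgeR. The values lay between -0.47 and 0.16, and 47 of the 49 lay within 0.2 of 0. For 44 members the 95% interval of the log2 fold change stayed within 0.5 of 0. The groups stood apart for 15 members, beside 37.6% of all genes.

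The gene with the lowest value was NOC4L, which pairs with NOP14 in the small subunit processome. It had 170 and 178.1 in the RACK1-WT libraries and 121.7 and 129.2 in the RACK1-Mut libraries, a log2 fold change of -0.47 (SE 0.213), with an unadjusted p of 0.0262 and an adjusted p of 1. Its partner NOP14 had 300.7 and 250 against 269.6 and 291.3 (RACK1-WT against RACK1-Mut), with 0.02 (SE 0.167) and overlapping groups. The region of LTV1 came next, at 263.6 and 224.7 against 188.5 and 193.8 and -0.35 (SE 0.183), and its groups did not overlap.

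The genes that changed in siTARG1 cells stood close to 0 in the RACK1 comparison. TCOF1 had 736.6 and 799.9 against 823.1 and 744.8 normalized counts, and its log2 fold change there was 0.03 (SE 0.111). NOC3L had 354.8 and 328.5 against 314.9 and 350.7, with -0.04 (SE 0.15). RRN3 had 375.6 and 371.8 against 365 and 415.3, with 0.06 (SE 0.142). The groups of all 3 overlapped. RRP1B had 303 and 317.8 against 316.1 and 308.5 and 0.01 (SE 0.152), and UTP18 188.6 and 190.4 against 190.9 and 175.3 and -0.05 (SE 0.191). NOLC1 had 1113 and 1084 against 1049 and 1069 and -0.05 (SE 0.095), and NCL 4413 and 4051 against 4035 and 4284 and -0.03 (SE 0.0758). UTP20 had 428.2 and 392.2 against 363.8 and 383.6 and -0.14 (SE 0.14). The remaining 3 were WDR43, with 496.2 and 516.4 against 508.2 and 535.2 and 0.04 (SE 0.124), DDX18, with 987.8 and 830.1 against 817.2 and 852.9 and -0.12 (SE 0.113), and NOB1, with 237.3 and 251.7 against 232.6 and 214.9 and -0.13 (SE 0.173). For NOLC1, UTP20 and NOB1 both RACK1-Mut libraries lay below both RACK1-WT libraries, and the groups of the other called genes overlapped.

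The core enzymes and scaffolds were also near 0 between the RACK1 lines. FBL had 4518 and 4453 against 4105 and 4429 (-0.07 (SE 0.0721)), NOP56 672.4 and 667.5 against 594.1 and 688.2 (-0.07 (SE 0.118)) and NOP58 618.3 and 522.1 against 647.8 and 627.5 (0.16 (SE 0.125)). DKC1 had 480.8 and 434.7 against 423.5 and 433.7 (-0.10 (SE 0.134)), NHP2 1071 and 1239 against 1041 and 1123 (-0.09 (SE 0.104)), NOP10 756.7 and 656.9 against 700.3 and 755.4 (0.04 (SE 0.117)) and GAR1 290.6 and 284.3 against 309 and 272.9 (0.02 (SE 0.159)). Of these 7 snoRNP proteins, FBL and DKC1 were lower in both RACK1-Mut libraries and NOP58 was higher, and the groups of the other 4 overlapped. NPM1 had 7313 and 6164 against 6529 and 6382 (-0.06 (SE 0.083)), POLR1A 380.3 and 375.9 against 390.1 and 349.3 (-0.03 (SE 0.143)), POLR1B 479.2 and 442 against 538 and 485.1 (0.15 (SE 0.13)) and UBTF 742 and 735.4 against 800.5 and 725.1 (0.05 (SE 0.11)). PES1 had 670.9 and 692.9 against 635.8 and 607.7 (-0.13 (SE 0.114)) and WDR12 405.8 and 388.1 against 384.1 and 332.2 (-0.15 (SE 0.144)), and for both the RACK1-Mut libraries were the lower ones.

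The effects of the 2 comparisons were set against each other in 1 fit of the 8 libraries with a mean for each of the 4 groups. The effect of siTARG1 minus that of RACK1-Mut was called for 9 members, 8 above 0 and 1 below, beside 12.3% of the 12955 genes tested. All 9 were among the 11 called in siTARG1 cells. The difference was 1.05 (SE 0.225 and adjusted p 7.35e-05) for NOC3L, 0.83 (SE 0.165 and adjusted p 1.52e-05) for TCOF1 and -1.08 (SE 0.197 and adjusted p 1.9e-06) for RRN3. It was also called for NOLC1, NCL, UTP18, UTP20, DDX18 and RRP1B. For WDR43 it was 0.34 (SE 0.167 and adjusted p 0.177) and for NOB1 -0.39 (SE 0.238 and adjusted p 0.302).

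Set side by side on the scale of levels used above, the RACK1 libraries lay between the siRNA groups for 5 of the 11 called genes. The 11 were called because their siRNA groups differ, which leaves room between these groups. The share of all genes with this order is not given here. For NOC3L the levels were 18.5 and 15 in siControl, 34.2 and 37.2 in siTARG1, 28.9 and 27.1 in RACK1-WT and 26.3 and 29.1 in RACK1-Mut. For TCOF1 they were 23.4 and 21.7 in siControl, 46.5 and 39.1 in siTARG1, 31.4 and 34.5 in RACK1-WT and 35.9 and 32.3 in RACK1-Mut. RRN3 showed the same order from the other side, with 56.7 and 61.5 in siControl, 29.4 and 31.9 in siTARG1, 37.6 and 37.7 in RACK1-WT and 37.5 and 42.4 in RACK1-Mut. The other 2 were RRP1B and UTP18. For UTP20, NOLC1, NCL and WDR43 the RACK1 libraries were near or below siControl. DDX18, at 81.5 to 96.1 in the RACK1 libraries, reached above its siTARG1 levels of 92.6 and 95.1, and NOB1, at 34.6 to 40.3, lay around or below its siTARG1 levels of 40.9 and 38.2. These cells differ in vectors, doxycycline and transfection, and no test was made between the pairs. Values on this scale lie 0.07 (log2) higher in siTARG1 cells than those scaled by the size factors of the fit.

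**Figure D3:**
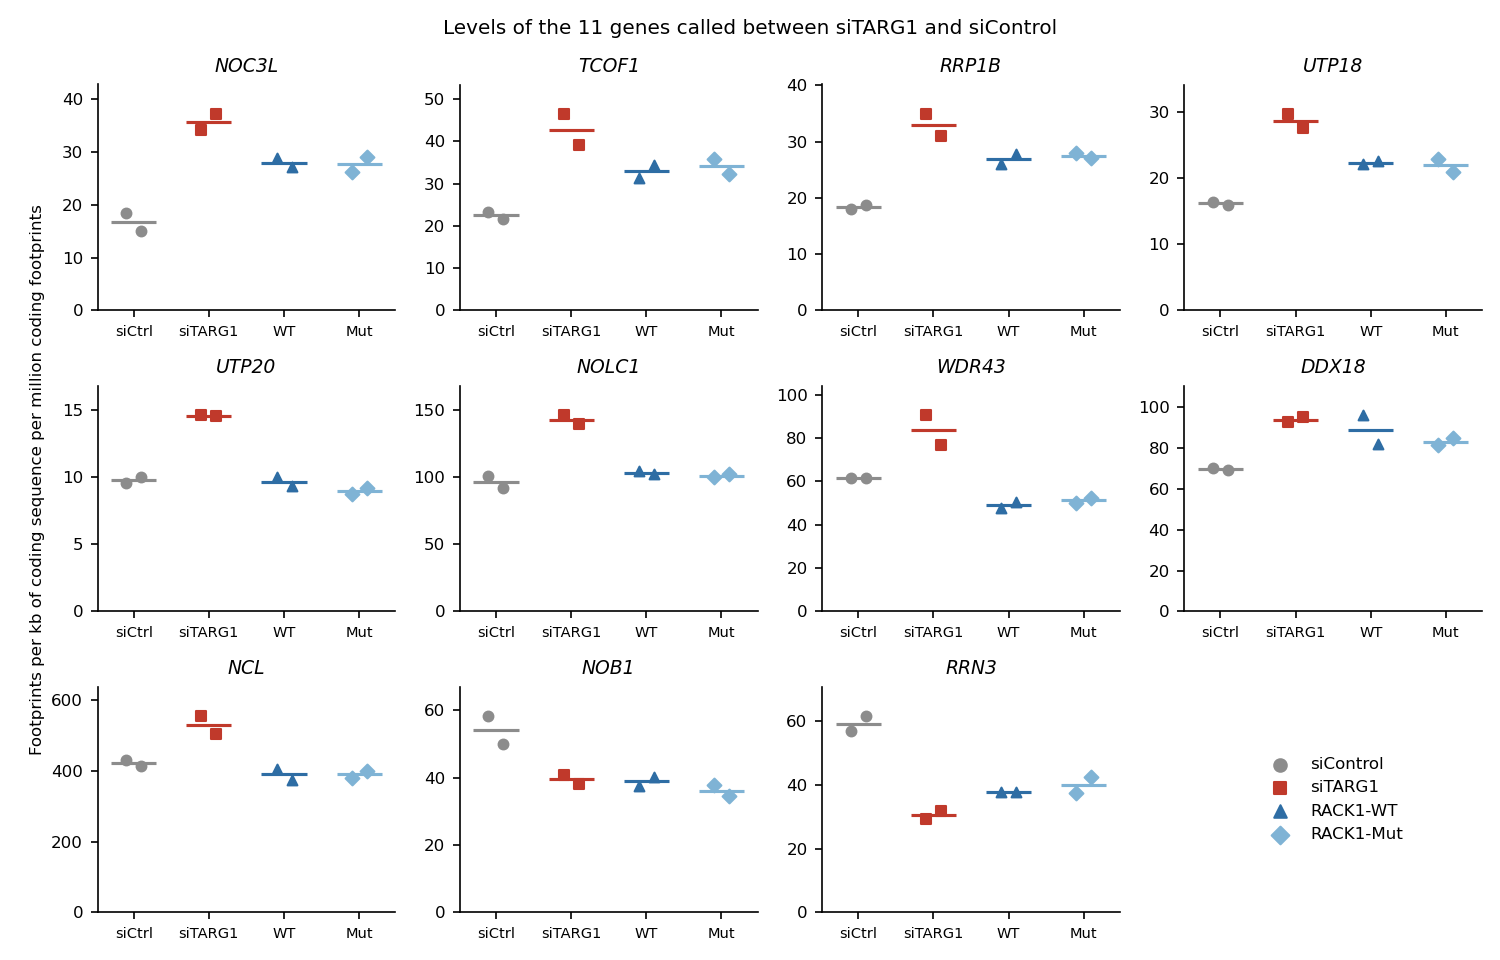
Footprints per kilobase of coding sequence per 1000000 coding footprints (linear axes from 0) of the 11 genes called in siTARG1 cells, in siControl (siCtrl), siTARG1, RACK1-WT (WT) and RACK1-Mut (Mut). Points are the 2 libraries of each group and lines their mean. NOC3L lies at 15 to 18.5 in siControl and 34.2 to 37.2 in siTARG1, with the 4 RACK1 libraries between at 26.3 to 29.1.

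Other genes of the pathway, from a list of 125 that shares no gene with the members, were counted in the same fits. Of 115 with a region of their own, 5 rose and 12 fell in siTARG1 cells, 14.8% against the 16.4% of all genes, and the median log2 fold change was 0.02. With 1 library left out, 3 or 4 of them were called, and 0 rose in 3 of the 4 fits (1 without siControl replicate 1). With edgeR 31 were called, 11 higher and 20 lower. The largest falls were RRP15 (-1.16, SE 0.288, adjusted p 0.000762) and MAK16 (-0.98, SE 0.2, adjusted p 2.33e-05), both factors of the 60S precursor, and ZNHIT6 (-0.88, SE 0.275, adjusted p 0.0112), which assembles box C/D snoRNPs. The largest rises were NIP7 (0.63, SE 0.211, adjusted p 0.022), KRR1 (0.55, SE 0.198, adjusted p 0.0353) and MYBBP1A (0.53, SE 0.144, adjusted p 0.00298). In the small subunit processome 3 of 30 rose and 5 fell (26.7% called). In 60S maturation 1 of 47 rose and 4 fell (10.6%). Of 9 genes of snoRNP assembly, 0 rose and 3 fell (33.3%), namely ZNHIT6, RUVBL2 (-0.4, SE 0.092) and SNU13 (-0.33, SE 0.115). Of 9 further genes of polymerase I transcription, 1, MYBBP1A, rose and 0 fell (11.1%). Of 15 genes of ribosomal RNA decay and trimming none was called (2 at an unadjusted p under 0.05, by DESeq2). In RACK1-Mut cells 0 of the 115 were called (1 at an unadjusted p under 0.05 by DESeq2, 0 adjusted by edgeR).

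Small interfering RNAs can also lower mRNAs other than their target, through short stretches of complementarity in the 3′ UTR. Words of 7 bases from TGAATATA and TGAACATA, chosen because earlier results of these data showed them to differ with the direction of change, were looked for on the mRNA strand of the annotated 3′ UTRs. Of the 9 members that rose, 6 carried a word from TGAATATA, as did 0 of the 2 that fell and 9 of 37 that were not called, with LTV1 left out because its region is shared. Over all genes the shares were 52.1% of those called higher, 30.0% of those called lower and 27.8% of the others. A word from TGAACATA was in 0 of the 11 called members and 5 of the 37 others. Over all genes such a word was in 18.3% of those called higher, 41.6% of those called lower and 21.3% of those not called. The 15 members with a word from TGAATATA had a median log2 fold change of 0.36, against -0.01 for the 33 without, and over all genes the medians were 0.09 for 3436 with a word and -0.02 for 8089 without. Since the words were chosen for this difference in the same data, these values describe it and are no test of it. A longer 3′ UTR holds more words, and its median length was 1440 bases in the members that rose and 733 in those not called. The siRNA sequences are not given in the sources used here. Neither word could therefore be matched to the control siRNA or to the siRNA against OARD1, and the sites below lie in genes that rose. The part of these words in the result was not tested. One site of each of the 6 genes is shown with 11 bases on either side (GRCh37), since these are the risers that carry a word, which stands in capitals.
NOC3L, chr10:96093746-96093774 (minus strand), 171 bases after the stop codon: tgcccctattcTGAATATgtcattccatc
TCOF1, chr5:149763670-149763698 (plus strand), 363 bases after the stop codon: ccacctcccctTGAATATcacataccaca
UTP18, chr17:49375187-49375215 (plus strand), 70 bases after the stop codon: agaaactttccTGAATATgtgataatata
NOLC1, chr10:103922697-103922726 (plus strand), 682 bases after the stop codon: atgggtcattcTGAATATAtttttttctgt
WDR43, chr2:29170212-29170240 (plus strand), 578 bases after the stop codon: ttgagtcagatTGAATATttggagtgctt
DDX18, chr2:118589517-118589545 (plus strand), 1228 bases after the stop codon: gtgctaacatcGAATATAgagaaaactgg

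NOLC1 holds the full 8 bases, and NOC3L and WDR43 each hold another site. Of the remaining risers, NCL, UTP20 and RRP1B had no such word. The site of TCOF1 lies in the 494-base 3′ UTR of transcripts that end before the gene's last exons, and not in that of the transcripts that run to its end. The 9 carriers that were not called ran from -0.14 (UTP4, DDX52) to 0.60 (DDX10).

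Promoters were read for motifs, which the choice of genes did not use. The E-box CACGTG, a palindrome bound by MYC with MAX and by other factors of their family, was in the promoters of 19 of the 42 members that had one in the RefSeq table (GRCh38.p14, 250 bases before to 50 after each start). That is 45.2% of those members, beside 8.77% of all 27305 genes, 10.9% of protein-coding genes and 26.4% of the other ribosome biogenesis genes. By promoter, 38.8% of 49 held it, beside 7.26% of 35116. The nearest box was centred between 28.5 bases before and 37.5 bases after the start in all 19. The ETS motif CCGGAAG was in 40.5% of the members' promoters by gene, beside 12.2% of all genes, 16.5% of protein-coding genes and 41.8% of the other ribosome biogenesis genes. The GC box GGGCGG was in 76.2% of the members, beside 48.3%, 64.3% and 63.6% of the same 3 sets, and CCAAT in 45.2%, beside 39.7%, 42.1% and 37.3%. All motifs were read on both strands, and a match is a description of the letters.

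**Figure D4:**
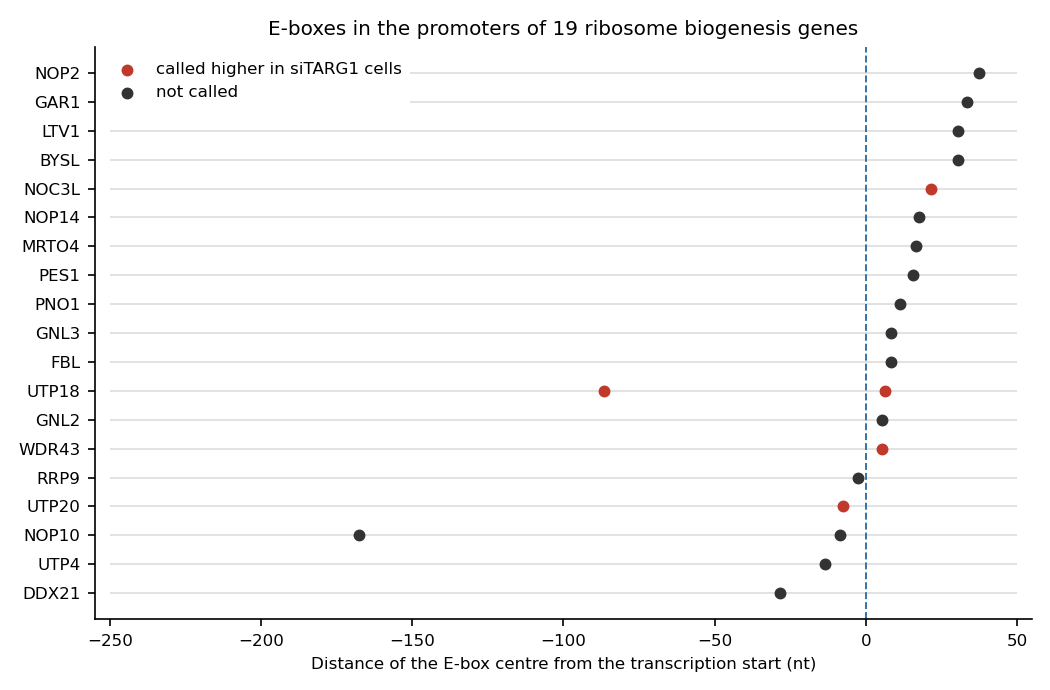
Distance in bases from the transcription start (dashed line, negative before it) to the centre of each E-box in the promoters of the 19 members with one. Grey lines mark the 300 bases searched, and red points are the 4 genes called higher in siTARG1 cells. The nearest box lies between -28.5 and 37.5 in all 19, and NOP10 and UTP18 hold a second box further upstream.

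Windows from 60 bases before to 30 bases after the start are shown for the 4 called genes with a box and for FBL, GNL2 and RRP9, which were not called, to show where it lies. The E-box stands in capitals, coordinates are those of GRCh38.p14, and each window reads 5′ to 3′ on the strand of the gene.
NOC3L, chr10:94362910-94362999 (minus strand): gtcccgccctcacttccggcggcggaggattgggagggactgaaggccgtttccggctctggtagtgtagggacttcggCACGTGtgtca
UTP18, chr17:51260486-51260575 (plus strand): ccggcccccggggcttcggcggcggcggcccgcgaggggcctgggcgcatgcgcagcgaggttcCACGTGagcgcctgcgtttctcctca
UTP20, chr12:101280045-101280134 (plus strand): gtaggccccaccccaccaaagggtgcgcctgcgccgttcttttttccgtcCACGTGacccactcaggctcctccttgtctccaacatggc
WDR43, chr2:28894607-28894696 (plus strand): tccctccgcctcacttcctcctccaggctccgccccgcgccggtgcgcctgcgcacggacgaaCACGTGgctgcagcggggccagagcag
FBL, chr19:39846350-39846439 (minus strand): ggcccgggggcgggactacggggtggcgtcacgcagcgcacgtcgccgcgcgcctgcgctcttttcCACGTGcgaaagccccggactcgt
GNL2, chr1:37595908-37595997 (minus strand): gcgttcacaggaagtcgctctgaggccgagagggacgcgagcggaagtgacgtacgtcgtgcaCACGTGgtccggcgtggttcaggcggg
RRP9, chr3:51941875-51941964 (minus strand): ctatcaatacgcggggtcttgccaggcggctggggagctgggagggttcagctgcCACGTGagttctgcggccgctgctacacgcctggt

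By call in siTARG1 cells, the box was in 4 of the 5 risers with a promoter in the table, 0 of the 2 genes that fell and 15 of the 35 that were not called. The median log2 fold change was 0.03 for the 19 members with it and 0.03 for the 23 without. NCL was the riser that lacked it. Levels (footprints per kilobase of coding sequence per 1000000 coding footprints) overlapped, with a mean of 10.7 to 1003 on that scale in members with the box and 10.2 to 1491 in those without.

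Between the start and end of 7 members lie annotated snoRNA genes on the same strand. There were 5 in GNL3, 4 in NOP58, 3 each in NCL, NOP56 and WDR43, and 2 each in DKC1 and TSR1. NCL and WDR43 rose in siTARG1 cells and the other 5 were not called.

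Footprints before the start codon can mark upstream initiation. Over the 49 genes together, 5′ UTR footprints made up 1.7% and 1.56% of all footprints on the transcripts with siControl and 1.46% and 1.54% with siTARG1. The means were 1.63% ± 0.0958 and 1.5% ± 0.0549 (SD, n = 2, two-sided exact permutation p = 0.33, the smallest that 2 against 2 can give). The median over the members lay in the other direction, at 0.361% and 0.583% with siControl and 0.641% and 0.671% with siTARG1 (exact permutation p = 0.33). The summed shares were 1.13% and 1.52% in RACK1-WT and 1.27% and 1.52% in RACK1-Mut (exact permutation p = 1). Over all genes with a 5′ UTR the share was 3.92% to 4.43% in the 8 libraries, and 2.82% to 3.45% with the largest contributor left out. With the 8 libraries summed, the share was 8.39% for RIOK1 (95% Wilson interval 6.99% to 10%), 7.6% for NHP2 (7.06% to 8.18%) and 6.34% for GAR1 (5.42% to 7.41%), the highest of the members. The order was not the same in every group. RIOK1 ran from 11.8% in siControl to 6.64% in RACK1-Mut, where LTV1 (7.85%) and NHP2 (7.45%) lay above it, and GAR1, at 4.22% in siControl, lay there below LTV1 (5.98%) and WDR12 (5.69%). At the low end, WDR43 had 0 of 4308 footprints in its 5′ UTR, which allows a share of up to 0.0696% (3 counts), and DDX52 0 of 1236, which allows up to 0.243%. TCOF1, at 0.0182% (0.00321% to 0.103%), came next. These intervals and limits cover counting error only. The shares were not scaled by the length of the 5′ UTR. That length was 507 bases for RIOK1, 150 for NHP2 and 300 for GAR1, and 56 for WDR43, 44 for DDX52 and 108 for TCOF1. TSR1, with 1080 bases, had a share of 0.137%.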

How the data were processed

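Ribosome-protected fragments were prepared from OVCAR3 cells with a linker that carries unique molecular identifiers. The authors clipped the reads, removed identifiers and barcodes, discarded ribosomal RNA reads with Bowtie 1.1.2 and aligned the rest to transcripts with TopHat2 2.1.1, with many hits per read allowed (tools per the labels and methods). The deposited files hold raw footprint counts per merged gene region, per the file headers from reads of 26 to 36 bases placed 14 bases from the 5′ end, on hg19 with GENCODE 24. The methods give another offset, and whether duplicate identifiers were collapsed is not given in the sources used here. The RPKM columns were not used.

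Regions were named by transcript identifier through GENCODE 44 lifted to GRCh37, and 19612 of 20165 matched. Coding counts with a sum of at least 10 over the 4 libraries of a comparison were tested with DESeq2 1.42.0 (as in the study's methods) in R 4.3.3, with Benjamini-Hochberg adjustment over all genes and calls at an adjusted p under 0.05. The difference of effects came from 1 fit of the 8 libraries with a mean for each of the 4 groups, as a contrast of these means. Alternatives were edgeR 4.0.16, other scaling, filters, exon counts, a replicate block, 1 fit of all libraries, and leaving out each library, which assumes that the lone library varies like the other group. The fits were tested on simulated counts. Values were given for each called member, for FBL, NOP56, NOP58, DKC1, NHP2, NOP10, GAR1, PES1, WDR12, NCL, NPM1, POLR1A, POLR1B, UBTF and RRN3, and for the 3 largest called rises and falls of the other pathway genes. NOC4L, LTV1, NOP14, PNO1, DDX10, DDX21, NOC2L, GNL3, MRTO4, RUVBL2 and SNU13 were added after their values were seen. Of the other pathway genes, 10 without a region of their own were left out.

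The study's methods describe the samples of its sequencing experiments as biologically independent, and the labels name no culture for a library. Depth was 3100947 to 6604190 coding counts, and a member had 58 to 9462 counts in a library. No replicate pair agreed within sampling noise. The members and lists were chosen with earlier results of these data known.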

Additional observations from a re-analysis of the deposited data

How the results depend on the processing

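In siTARG1 cells, the count of called members was 10 to 14 under edgeR, TMM factors, no filter, at least 10 counts in every library, exon counts, all 8 libraries in 1 fit, removal of mitochondrial and the 10 most counted genes, and an adjusted p under 0.1. It was 6 (5 higher, 1 lower) with the replicate block, and 3 to 5 with 1 library left out. Replicate numbers did not pair the libraries (correlation of deviations 0.0306 for the siRNA groups and 0.0829 for the RACK1 groups), and the block left RRN3, TCOF1, NOLC1, NCL, RRP1B and NOC3L called. Of the other pathway genes, 17 were called, 31 with edgeR, 8 with the replicate block and 3 to 4 with 1 library left out. The members' median was 0.04 to 0.08 with 1 siRNA library left out and -0.07 to 0.02 with 1 RACK1 library left out. In RACK1-Mut cells 0 members were called under every alternative, and with all 8 libraries in 1 fit 43 had no adjusted p. Effects of the comparisons differed for 11 members with edgeR and for 9 with at least 10 counts in every library. The 5′ UTR share of siTARG1 minus siControl was -0.13 percentage points for the sum and 0.184 for the median over members.

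Signs near 0 turned for single members that were not called. With exon counts GAR1 was 0.04 in siTARG1 cells. With 1 library left out, values in siTARG1 cells ran from -0.02 to 0.04 for NOP56, -0.01 to 0.10 for NOP10, -0.19 to 0.10 for GAR1 and -0.18 to 0.01 for WDR12. In RACK1-Mut cells they ran from -0.12 to 0.05 for POLR1A, -0.03 to 0.12 for UBTF, -0.03 to 0.15 for RRN3, -0.05 to 0.10 for TCOF1, -0.09 to 0.04 for NCL, -0.18 to 0.07 for NPM1, -0.17 to 0.04 for NOP56, -0.20 to 0.01 for NHP2, -0.06 to 0.15 for NOP10, -0.08 to 0.10 for GAR1, -0.11 to 0.01 for UTP18, -0.24 to 0.01 for DDX18, -0.02 to 0.04 for RRP1B and -0.12 to 0.04 for NOC3L. The cause was not tested.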
